A study of Homo sapiens with 12 samples.

Results

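Genes of the small nuclear RNAs (snRNAs) made by RNA polymerase II were followed in nascent RNA after siRNA against INTS11, the endonuclease subunit of the Integrator complex. They were taken by their symbols, 10 of the 60583 genes in the count tables: RNU1-1 (U1), RNU4-1 and RNU4-2 (U4), RNU5A-1, RNU5B-1, RNU5D-1 and RNU5E-1 (U5), RNU11 and RNU12 (the minor spliceosome's U11 and U12) and RNU7-1 (U7). The study asked how Integrator bears on elongation by RNA polymerase II, and measured new RNA by TT-seq, in which RNA labelled with 4-thiouridine is fragmented, captured and sequenced. Osteosarcoma cells (U2OS) and their derivative U2OS-AsiSI, which holds AsiSI-ER, a restriction nuclease joined to the hormone-binding part of the oestrogen receptor, received siCtrl or siINTS11 for 48 hours, giving 4 groups of 3 replicates. All 6 U2OS-AsiSI libraries also had 4-hydroxytamoxifen (OHT) for 1 hour, and the labels list none for U2OS, so line, nuclease and drug cannot be told apart. The labels do not say that replicates came from separate cultures, so p-values measure only the spread between these libraries, which may be technical.

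Integrator binds RNA polymerase II at snRNA genes and cuts the nascent transcript beyond the mature 3′ end, near a loosely conserved downstream element called the 3′ box. The cut RNA is exported, loaded with a ring of Sm proteins (or Sm and Lsm proteins, for U7), trimmed and returned to the nucleus. U1 recognises the 5′ splice site, U4 holds U6 inactive, U5 aligns the exons, U11 and U12 serve the rare minor-class introns, and U7 guides the 3′ end cutting of histone mRNAs. U6 and several other small RNAs come from RNA polymerase III, whose transcripts Integrator is not known to process.

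Several of these genes have near-identical copies, so what a short read can tell apart decides how far a count belongs to 1 gene. The U4 pair is shown here with RNU1-1, because they span the range from no unique 30-base window to many. Sequences are from GENCODE release 29 transcripts (GRCh38), 5′ to 3′. Capitals mark bases of the Sm-site motif in RNU1-1 and bases that differ from RNU4-1 in RNU4-2.
RNU1-1: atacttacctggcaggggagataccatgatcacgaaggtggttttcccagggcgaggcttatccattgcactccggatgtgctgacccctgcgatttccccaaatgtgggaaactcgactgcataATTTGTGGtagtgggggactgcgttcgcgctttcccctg
RNU4-1: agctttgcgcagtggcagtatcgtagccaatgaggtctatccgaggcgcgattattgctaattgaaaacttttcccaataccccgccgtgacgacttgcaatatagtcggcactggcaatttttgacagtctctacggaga
RNU4-2: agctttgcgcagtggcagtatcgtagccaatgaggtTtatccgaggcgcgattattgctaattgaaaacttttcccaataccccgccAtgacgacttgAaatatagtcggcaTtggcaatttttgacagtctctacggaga

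The whole RNU1-1 sequence (chr1:16514122-16514285, minus strand) occurs in 7 other annotated genes, and 0 of its 135 windows of 30 bases are found in no other gene. Its count is therefore uncertain as a count of that locus. RNU4-1 (chr12:120293097-120293237) and RNU4-2 (chr12:120291763-120291903), both on the minus strand with a gap of 1193 bp, differ at 4 of 141 bases (97.2% identity). They hold 52 and 64 unique windows of 112. RNU5A-1 (chr15:65296051-65296166) and RNU5B-1 (chr15:65304677-65304792) lie on the plus strand and RNU5D-1 (chr1:44731055-44731170) on the minus strand.

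The total count ran from 20704611 to 38065726 reads per library and was lowest in the U2OS-AsiSI siINTS11 group (20704611 to 26579035). INTS11 itself had 269 to 351 reads in the 6 siCtrl libraries and 212 to 277 in the 6 labelled siINTS11. Its log2 fold change was -0.13 (edgeR adjusted p 0.172, SE 0.08) in U2OS-AsiSI and -0.42 (edgeR adjusted p 6.08e-05, SE 0.09) in U2OS, so it passed the threshold in U2OS and not in U2OS-AsiSI. The U2OS call was lost without scaling (-0.32, adjusted p 0.0917), and the U2OS-AsiSI value became 0.06 with library totals alone. These are reads of new RNA over the whole gene span, so INTS11 mRNA and protein, and thus the depth of the knockdown, were not measured here. siINTS11 below means the libraries so labelled. All 9 mesenchymal markers had reads in every library, summing to 1428 to 1635 CPM (counts scaled to a common library size) under siCtrl and 1100 to 1217 under siINTS11. The 6 epithelial markers summed to 84.9 to 103 and 101 to 137 CPM, and the 3 endothelial markers to 5.9 to 7.44 and 13.2 to 15.1 CPM. The 5 blood markers stayed under 0.594 CPM, with HBB at 0 in every group. Their part in the snRNA changes was not tested, and in bulk RNA fewer cells of a type and less RNA per cell cannot be told apart.

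Each of the listed snRNA genes with enough reads to be tested rose after siINTS11. RNU1-1, RNU4-1, RNU4-2, RNU5A-1, RNU5B-1 and RNU5D-1 were higher in both lines, 6 of 6 tested, with edgeR's quasi-likelihood test at an adjusted p under 0.05. Among all genes tested, 35.4% were called higher in U2OS-AsiSI and 34.5% in U2OS (32.6% and 32.4% lower), so a rise as such was common. The members' median log2 fold change was 0.85 in U2OS-AsiSI and 0.56 in U2OS, against 0.03 and 0.02 over all genes. RNU5D-1 and RNU1-1 rose at least 2-fold in both lines, as did 9.73% and 9.62% of all genes. RNU5D-1 did not pass the count filter among the siCtrl libraries alone. It was tested here through its siINTS11 reads, so its direction was nearly fixed in advance. The other 4 genes were not tested: RNU11 had 3 or 4 reads in every library, and RNU5E-1, RNU12 and RNU7-1 had none.

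RNU1-1 encodes U1, the most abundant spliceosomal snRNA. In U2OS-AsiSI it had 11 reads in each of the 3 siCtrl libraries and 35, 39 and 29 under siINTS11. In U2OS it had 11, 9 and 11 reads under siCtrl and 40, 33 and 39 under siINTS11. No siINTS11 library of either line overlapped a siCtrl library. Per base of the gene, the raw count went from 0.0671 ± 0 to 0.209 ± 0.0307 reads (SD, n = 3) in U2OS-AsiSI and from 0.063 ± 0.00704 to 0.228 ± 0.0231 in U2OS. After scaling by trimmed mean of M-values (TMM), the log2 fold change was 1.78 (edgeR adjusted p 1.02e-06, SE 0.27) in U2OS-AsiSI and 1.75 (edgeR adjusted p 1.81e-07, SE 0.26) in U2OS. Of its annotated copies, RNU1-2, RNU1-4 and RNVU1-18 had 0 reads in all 12 libraries and RNU1-3 had 1 read in 1 library. The counts of RF00003, RNU1-27P and RNU1-28P, which also hold the whole sequence, are not reported here. How reads were placed among the copies is not given in the sources used here, so this is a change of reads assigned to RNU1-1, which may not be of that locus alone.

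RNU4-1 and RNU4-2 encode U4, the partner that keeps U6 paired until the spliceosome is activated. RNU4-1 had 73, 75 and 80 reads under siCtrl and 111, 104 and 110 under siINTS11 in U2OS-AsiSI, and 80, 90 and 82 against 121, 108 and 107 in U2OS. RNU4-2 had 66, 76 and 75 reads against 112, 119 and 122 in U2OS-AsiSI, and 80, 86 and 65 against 123, 117 and 123 in U2OS. For both genes the siRNA groups were apart in raw counts. RNU4-2 rose by a log2 fold change of 0.85 (edgeR adjusted p 2.48e-06, SE 0.14) in U2OS-AsiSI and 0.56 (edgeR adjusted p 0.000205, SE 0.13) in U2OS. RNU4-1 rose by 0.66 (edgeR adjusted p 6.83e-05, SE 0.13) and 0.32 (edgeR adjusted p 0.0228, SE 0.13). The U2OS call of RNU4-1 was the weakest: it was lost without scaling (0.41, adjusted p 0.0577), in DESeq2 (0.31, adjusted p 0.113), without siCtrl replicate 2 (0.27, adjusted p 0.105) and without siINTS11 replicate 1 (0.30, adjusted p 0.0765).

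The U5 genes, whose RNA contacts both exons, fell into 2 patterns. RNU5A-1 had 50, 56 and 57 reads under siCtrl and 83, 92 and 89 under siINTS11 in U2OS-AsiSI, and 57, 67 and 51 against 90, 94 and 91 in U2OS. RNU5B-1, which starts 8510 bp beyond the end of RNU5A-1 on the same strand, had 58, 72 and 67 against 100, 98 and 104 in U2OS-AsiSI, and 71, 78 and 63 against 106, 94 and 101 in U2OS. Both were well read under siCtrl and rose moderately. The log2 fold change of RNU5A-1 was 0.84 (edgeR adjusted p 1.91e-05, SE 0.15) in U2OS-AsiSI and 0.56 (edgeR adjusted p 0.000724, SE 0.14) in U2OS. That of RNU5B-1 was 0.76 (edgeR adjusted p 1.66e-05, SE 0.14) and 0.42 (edgeR adjusted p 0.00669, SE 0.14), and DESeq2 left the latter just outside the threshold (0.40, adjusted p 0.0509).

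RNU5D-1, a U5 variant gene, started from few reads. It had 8, 8 and 11 under siCtrl and 57, 61 and 65 under siINTS11 in U2OS-AsiSI. In U2OS the siCtrl libraries had 1, 18 and 10 reads and the siINTS11 libraries 57, 60 and 71, again with no overlap. The raw mean rose 6.78-fold in U2OS-AsiSI and 6.48-fold in U2OS. The scaled log2 fold change was 2.89 (edgeR adjusted p 6.79e-12, SE 0.24) and 2.60 (edgeR adjusted p 6.44e-09, SE 0.29), which ranked 54 of 20441 and 116 of 20687 genes by size. RNU5D-1 passed the count filter through its siINTS11 reads, so its direction was nearly fixed in advance. Its p-values and ranks therefore describe the gene and are not support. The U2OS value depended on which control was kept: it was 2.14 without siCtrl replicate 1 (1 read) and 3.28 without siCtrl replicate 2 (18 reads).

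**Figure D1:**
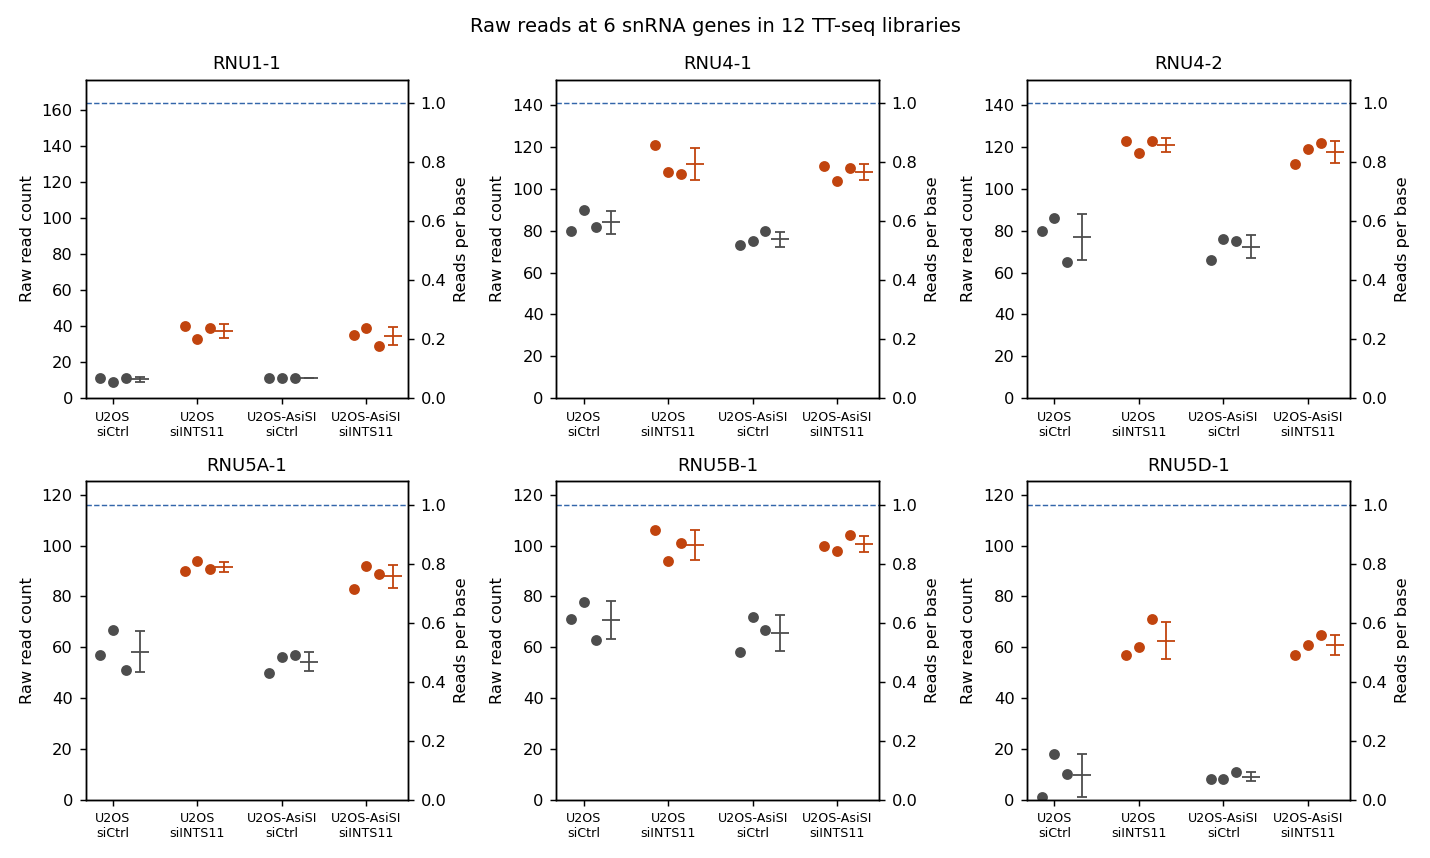
Raw read count (left axis) and reads per base (right axis) of the 6 tested snRNA genes in all 12 libraries, by group; points are replicates, the bar at the right of each group is the mean with its SD (n = 3), and the dashed line is 1 read per base. In each panel the 6 siINTS11 points lie above the 6 siCtrl points, and RNU4-1, RNU4-2, RNU5A-1 and RNU5B-1 come close to the dashed line under siINTS11.

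The raw counts alone separated the siRNAs across both lines. In each of the 6 tested genes, the lowest of the 6 siINTS11 counts was above the highest of the 6 siCtrl counts, which held for 13.9% of the 21521 genes tested over all libraries. RNU5D-1, which passed the filter through its siINTS11 reads, counts for less here. Within a line it held for 19.9% of genes in U2OS-AsiSI and 31.3% in U2OS. In U2OS-AsiSI the raw counts were higher although the siINTS11 libraries were shallower. With every library given the same size, 6 of 6 genes were called higher in U2OS-AsiSI, where 18% of all genes were, and 5 of 6 in U2OS, where 28.2% were. The 10 members together had 291.7 ± 19.7 reads (SD, n = 3) under siCtrl and 513 ± 10.8 under siINTS11 in U2OS-AsiSI, and 313.3 ± 33.7 and 528 ± 16.6 in U2OS.

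The genes differed in how densely they were read. No gene of 100 to 200 bp (4489 genes), of 200 to 1000 bp (13219 genes) or over 1000 bp (39845 genes) had more than 1 read per base in any library, the highest values being 0.914, 0.986 and 0.987. Among genes under 100 bp, 4 of 2466 and, of the shortest, 1 of 485 did exceed it, reaching 2.03. Within the 100 to 200 bp class RNU5B-1 held the highest value (0.914), and RNU4-2 (0.872), RNU4-1 (0.858) and RNU5A-1 (0.81) ranked next. Of the 9 genes of 100 to 200 bp that passed 0.5 reads per base in some library, 5 were members, the fifth being RNU5D-1 (0.612). The 4 densest genes were those with the smaller fold changes, and RNU5D-1 and RNU1-1, at under 0.16 reads per base in every siCtrl library, had the larger ones. The part of read density in the smaller folds was not tested.

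Under siCtrl the levels per base fell into 2 tiers. In U2OS-AsiSI the means were 0.566 for RNU5B-1, 0.539 for RNU4-1, 0.513 for RNU4-2 and 0.468 for RNU5A-1, then 0.0776 for RNU5D-1 and 0.0671 for RNU1-1. Neighbours overlapped in their libraries among the first 4, the 2 tiers were apart, and RNU5D-1 (0.069 to 0.0948) lay just above RNU1-1. The U2OS order was RNU5B-1 (0.609), RNU4-1 (0.596), RNU4-2 (0.546), RNU5A-1 (0.503), RNU5D-1 (0.0833) and RNU1-1 (0.063), where neighbours overlapped within both tiers. Under siCtrl the lines were not shown to differ: 0 of 5 members tested passed (background 34.9%), 0 had an unadjusted p under 0.05, and DESeq2 called 0 with 1 left without an adjusted p. RNU5D-1 did not pass the count filter in that comparison. The U2OS-AsiSI minus U2OS log2 differences ran from -0.10 for RNU4-1 (approximate 95% interval -0.38 to 0.18) to 0.13 for RNU1-1 (-0.55 to 0.81).

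The response to siINTS11 was not shown to differ between the lines either. In the interaction test 0 of 6 members passed (background 3.87%), with 0 at an unadjusted p under 0.05, and DESeq2 gave none of them an adjusted p. The largest difference was in RNU5B-1, 0.31 higher on the log2 scale in U2OS-AsiSI (95% interval -0.05 to 0.68, edgeR adjusted p 0.381). RNU4-1 was next at 0.30 (-0.05 to 0.65), and RNU1-1 stood at -0.01 (-0.70 to 0.68). The interval of RNU5D-1 was the widest, from -0.69 to 1.22.

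**Figure D2:**
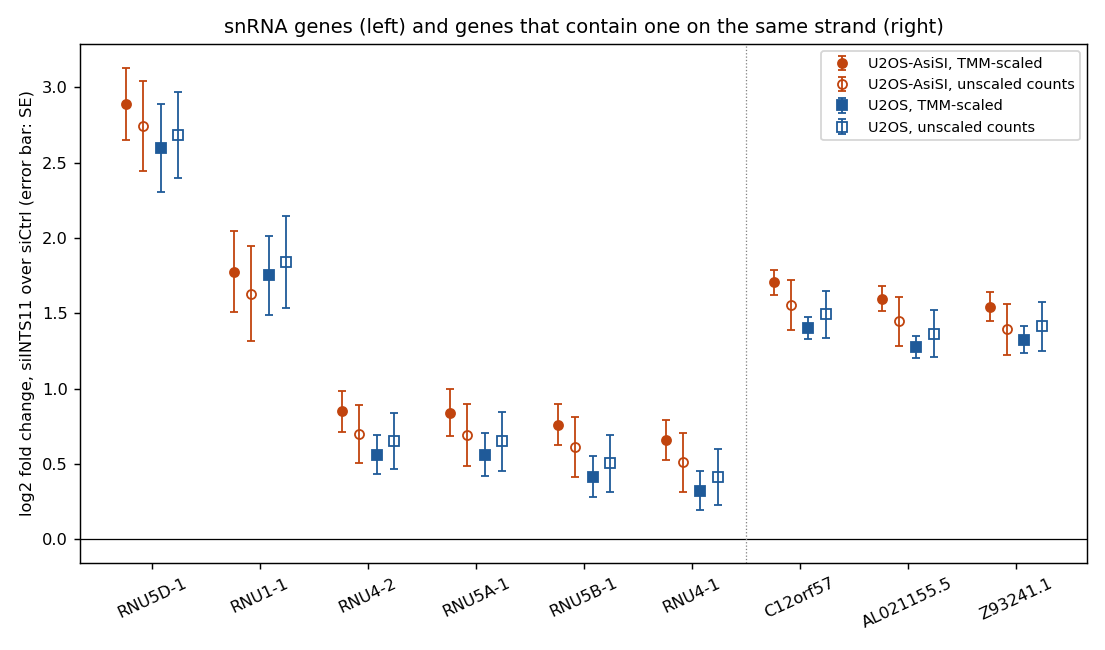
Log2 fold change of siINTS11 over siCtrl with its SE for the 6 tested snRNA genes (left of the dotted line) and 3 genes that contain an snRNA gene on the same strand (right); filled symbols are TMM-scaled fits, open symbols unscaled counts, circles U2OS-AsiSI and squares U2OS. Every point lies above 0, RNU5D-1 is highest at 2.89 and 2.60, and scaling moves each point by less than the gap between RNU1-1 and the dense genes.

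The counting itself hid 3 of the 4 untested genes. Of 3356 genes of at most 200 bp that lie inside another gene on their own strand, 3356 had 0 reads in all 12 libraries, against 75.0% of 1656 that lie only inside a gene on the opposite strand and 68.9% of 2373 that overlap no gene. Reads that touched 2 genes of 1 strand were thus counted for neither. RNU5E-1 (chr1:11908152-11908271) lies inside AL021155.5, RNU12 (chr22:42615244-42615393) inside Z93241.1, and RNU7-1 (chr12:6943816-6943878) inside C12orf57, each on the plus strand. Their zeros, which at 3 counts would allow 0.0848 to 0.132 CPM, are zeros of assignment and say nothing of these RNAs. RNU11 (chr1:28648600-28648733, plus strand, 134 bp) shares 131 bases with AL360012.1, so reads assigned to it can lie on 3 bases only, and its 3 or 4 reads per library are about 1 per free base under both siRNAs.

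The genes around the hidden members could be read, and all 3 rose. Over all genes tested, 35.4% were called higher in U2OS-AsiSI and 34.5% in U2OS, and 9.73% and 9.62% at least 2-fold higher. RNU12 occupies the first 150 bases of the 664 bp transcript Z93241.1, so the reads of Z93241.1 lie in the 514 bases beyond the RNU12 3′ end. There were 149, 168 and 166 of them under siCtrl and 421, 420 and 429 under siINTS11 in U2OS-AsiSI, and 169, 180 and 144 against 438, 437 and 441 in U2OS. Per base of the 514, this is 0.313 against 0.824 reads in U2OS-AsiSI and 0.32 against 0.853 in U2OS, with no overlap between the siRNAs. The siINTS11 libraries held 0.817 to 0.835 and 0.85 to 0.858, about as dense as the densest members. The part of read density in this change was not tested. The log2 fold change was 1.55 (edgeR adjusted p 7.89e-15, SE 0.10) and 1.33 (edgeR adjusted p 3.33e-17, SE 0.09).

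AL021155.5 (chr1:11907940-11914298, plus strand) is an annotated gene that starts upstream of RNU5E-1 and runs past it. It had 247, 289 and 292 reads under siCtrl and 765, 740 and 752 under siINTS11 in U2OS-AsiSI, and 308, 317 and 278 against 757, 791 and 780 in U2OS. The groups were far apart, with log2 fold changes of 1.60 (edgeR adjusted p 1.7e-16, SE 0.08) and 1.27 (edgeR adjusted p 6.88e-19, SE 0.07). C12orf57 (chr12:6942978-6946003, plus strand), a protein-coding gene that holds RNU7-1, had 250, 309 and 317 reads against 855, 823 and 900 in U2OS-AsiSI, and 315, 331 and 266 against 832, 858 and 878 in U2OS. It rose by 1.71 (edgeR adjusted p 1.95e-17, SE 0.08) and 1.40 (edgeR adjusted p 1.89e-20, SE 0.07). In both of these genes the counts cover the whole span, so reads upstream and downstream of the snRNA cannot be told apart.

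**Figure D3:**
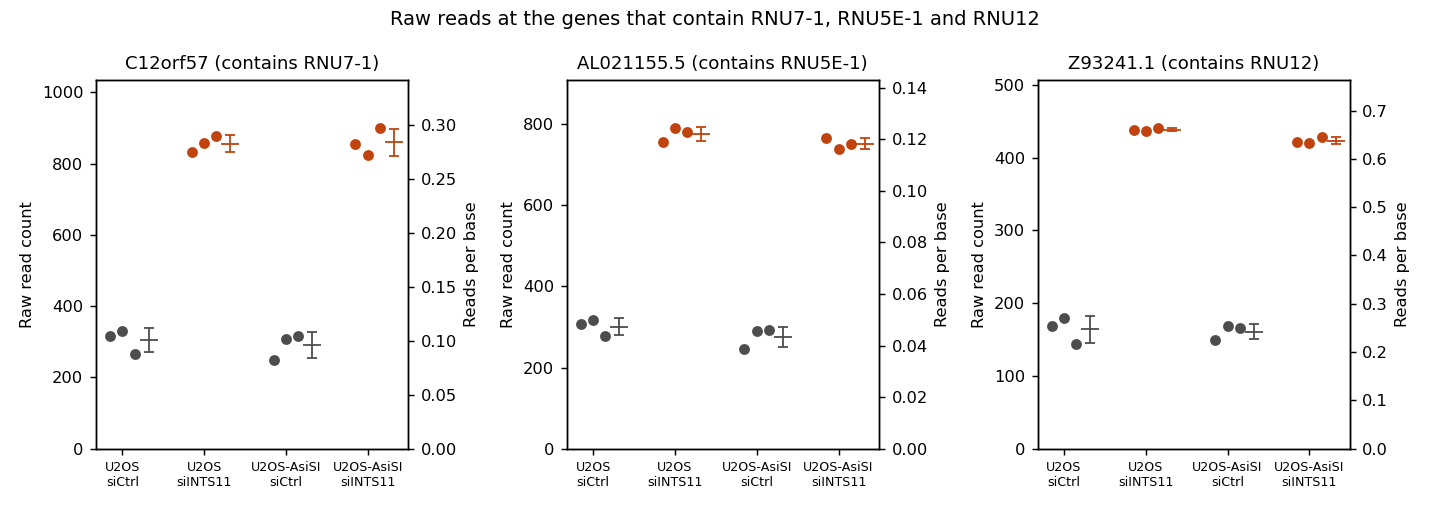
Raw read count (left axis) and reads per base of the whole gene (right axis) for C12orf57, AL021155.5 and Z93241.1 in the 12 libraries by group; points are replicates and the bar at the right of each group is the mean with its SD (n = 3). All siINTS11 points (420 reads and above in Z93241.1, 740 and above in AL021155.5, 823 and above in C12orf57) lie above all siCtrl points.

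The first 30 bases beyond RNU12 and RNU5E-1 are shown because they hold the stretch where Integrator's 3′ box usually lies. Capitals mark the match to AAANNNAGA, or to the whole 3′ box where it matched. They are from the annotated transcripts that run past the snRNAs (GENCODE release 29, GRCh38, plus strand), chr22:42615394-42615423 for RNU12 and chr1:11908272-11908301 for RNU5E-1.
RNU12 3′ flank: accttattcacgcctaAAAAGTAGActgac
RNU5E-1 3′ flank: tattttaagtGTTTTAAAAACAGAtgcgat
The RNU5E-1 flank matched the whole 3′ box from base 11. The RNU12 flank matched AAANNNAGA, which is contained in the box, from base 17, and not the whole box. Neither motif was found in the same window beyond RNU7-1, and none of the 3 windows matched on the other strand. Over both strands, 1.96% of 351160 windows of 30 bases in RefSeq promoter sequences hold AAANNNAGA and 0.0111% the 3′ box. A match describes the letters and is not a measured cut.

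Other same-strand genes that start within 10 kb of a member's 3′ end gave few reads or a smaller change. RNU5F-1, a U5 copy 9152 bp beyond RNU5D-1, had 0, 0 and 1 reads under siCtrl and 3, 5 and 7 under siINTS11 in U2OS-AsiSI, and 1, 1 and 1 against 3, 10 and 8 in U2OS. These counts are near the floor, and the gene was not tested. PTPN6, a phosphatase gene 2589 bp beyond RNU7-1, had 20 to 44 reads under siCtrl and 43 to 65 under siINTS11 over both lines, with log2 fold changes of 1.02 (edgeR adjusted p 0.00015, SE 0.22) and 0.58 (edgeR adjusted p 0.00836, SE 0.20). The U2OS call of PTPN6 was lost in DESeq2 (0.56, adjusted p 0.0653) and without siCtrl replicate 2 (0.48, adjusted p 0.0574). AC105129.2, 5755 bp beyond RNU5A-1, had at most 2 reads in any library.

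Of 2 opposite-strand genes, named after their values were seen, 1 fell and 1 rose. U47924.2, which covers RNU7-1 on the minus strand, had 20 to 32 reads under siCtrl and 7 to 16 under siINTS11. Its log2 fold change was -1.02 (edgeR adjusted p 0.00195, SE 0.28) in U2OS-AsiSI and -1.60 (edgeR adjusted p 1.25e-05, SE 0.30) in U2OS. PARP16, which lies across RNU5A-1 on the minus strand, changed by 0.24 (edgeR adjusted p 0.000742, SE 0.06) and 0.31 (edgeR adjusted p 4.26e-06, SE 0.05), less than RNU5A-1 itself.

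Of 25 other RNA polymerase II small RNA genes (U1 and U2 copies, U4atac, U3, U8 and U13), 13 had 0 reads throughout and 6 could be tested. In U2OS-AsiSI 4 rose and 0 fell (median log2 0.64), and in U2OS 2 rose and 0 fell (median 0.46), where 35.4% and 34.5% of all genes tested were called higher. With library totals alone 5 and 4 of the 6 were called higher, and without scaling 2 and 2. RNVU1-31, a U1 variant gene, rose by 2.21 (edgeR adjusted p 2.47e-05, SE 0.41) and 1.91 (edgeR adjusted p 2.76e-05, SE 0.38), and RNVU1-8, another, by 0.71 (SE 0.17) and 0.68 (SE 0.17). RNVU1-31 had 2 to 5 reads under siCtrl and 12 to 23 under siINTS11, so it passed the count filter through siINTS11. SNORD3B-1, which encodes the ribosomal RNA processing factor U3, rose by 0.57 (edgeR adjusted p 0.000158, SE 0.12) in U2OS-AsiSI and stood at 0.24 (edgeR adjusted p 0.0638, SE 0.12) in U2OS. The U2OS-AsiSI call of SNORD3B-1 was lost without scaling (0.42, adjusted p 0.0503). Its U2OS value passed with library totals alone (0.44, adjusted p 0.0012), with genes of mean count 50 or more (0.28, adjusted p 0.0291) and without siCtrl replicate 1 (0.31, adjusted p 0.0285).

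Of 12 small RNA genes of RNA polymerase III, 8 were tested. In each line 2 rose and 0 fell, with median log2 changes of 0.30 in U2OS-AsiSI and 0.03 in U2OS. Over all genes tested, 35.4% and 34.5% were called higher, so 2 of 8 is not far from that share. Without scaling 0 and 1 of the 8 were called higher, where 6 and 5 of the 6 members were, and with library totals alone 6 and 2 of the 8, where 6 and 6 members were. Of all genes, 18% and 28.2% were called higher without scaling. With library totals alone 10550 of 20441 and 10968 of 20687 were. RNU6-2, a U6 gene named after its values were seen, was more densely read under siCtrl than any tested member and had 75 to 82 reads in the siCtrl libraries and 72 to 82 in the siINTS11 libraries. Its reads per base were 0.72 ± 0.0162 and 0.717 ± 0.047 (SD, n = 3) in U2OS-AsiSI and 0.754 ± 0.0216 and 0.741 ± 0.0108 in U2OS, overlapping in both lines. No gene of 100 to 200 bp passed 0.914, and the part of read density in the flat counts of RNU6-2 was not tested. RMRP, the RNA of the RNase MRP enzyme, stood at 0.24 (edgeR adjusted p 0.0307, SE 0.10) and -0.01 (edgeR adjusted p 0.913, SE 0.10), and the sign in U2OS flipped with library totals alone and without scaling. The U2OS-AsiSI call of RMRP was lost without scaling (0.093, adjusted p 0.682), in DESeq2 (0.23, adjusted p 0.113) and without siCtrl replicate 1 (adjusted p 0.0516), siCtrl replicate 2 (adjusted p 0.101) or siINTS11 replicate 2 (adjusted p 0.253). RNU6-8, another U6 gene, rose by 0.52 (edgeR adjusted p 0.0337, SE 0.21) and 0.49 (edgeR adjusted p 0.039, SE 0.21), calls lost in DESeq2 (adjusted p 0.147 and 0.161) and without scaling (adjusted p 0.252 and 0.0568), and on leaving out any of several libraries (adjusted p up to 0.171 and 0.106). RNY3, a Y RNA gene, stood at 0.72 (edgeR adjusted p 0.0622, SE 0.34) and -0.38 (edgeR adjusted p 0.367, SE 0.37), and the former passed with library totals alone (0.91, adjusted p 0.0203) and without siCtrl replicate 2 (1.07, adjusted p 0.0256).

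**Figure D4:**
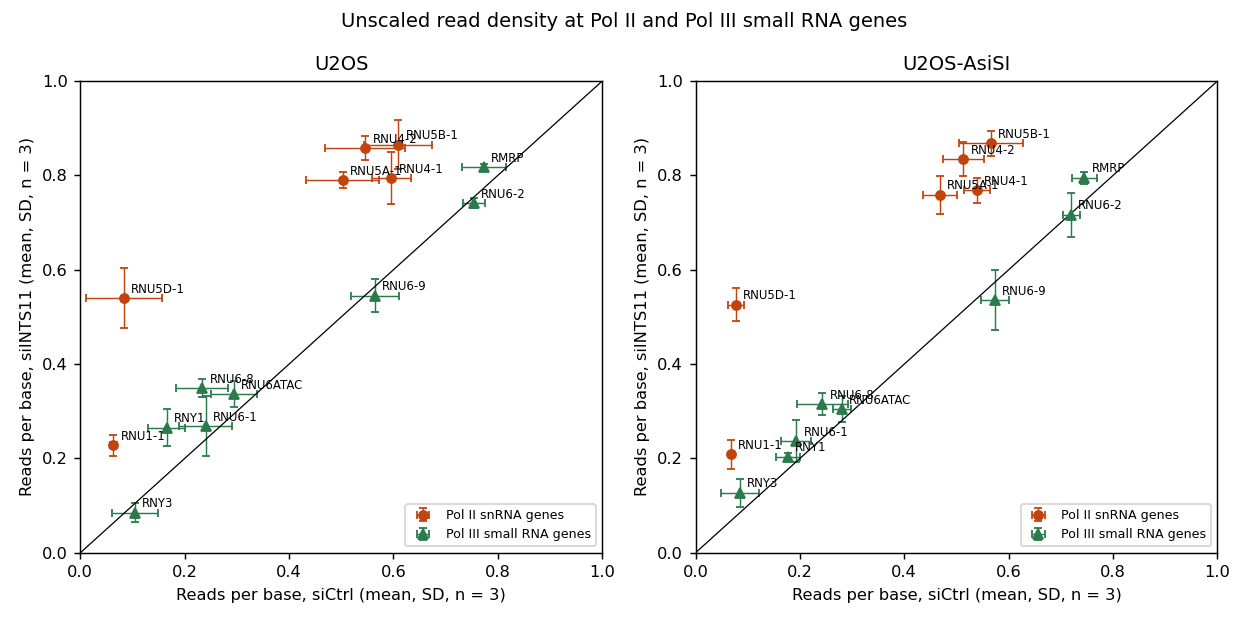
Mean unscaled reads per base under siCtrl (horizontal axis) and siINTS11 (vertical axis), with SDs (n = 3), for the 6 tested RNA polymerase II snRNA genes (circles) and 8 RNA polymerase III small RNA genes (triangles) in U2OS (left) and U2OS-AsiSI (right); the line marks equal values. All 6 snRNA genes lie above the line in both lines. Most of the 8 RNA polymerase III genes also lie above it in each panel, such as RNU6-8 at 0.234 against 0.349 in U2OS. The others lie on or below it, such as RNY3 at 0.105 against 0.085 in U2OS. RNU6-2, named after its values were seen, lies on it, at 0.754 against 0.741 in U2OS and 0.72 against 0.717 in U2OS-AsiSI.

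The protein genes that serve snRNA synthesis and assembly were called in both directions with TMM scaling, where 35.4% and 34.5% of all genes were higher and 32.6% and 32.4% lower, and these calls depended on scaling. Of 16 snRNA promoter factors, 3 rose and 5 fell in U2OS-AsiSI (median log2 -0.07) and 4 rose and 7 fell in U2OS (median -0.02). With library totals alone 10 were higher and 2 lower in U2OS-AsiSI and 10 and 3 in U2OS, and without scaling 0 and 5, and 1 and 2. POU2F1 (Oct-1), which binds the distal element of snRNA promoters, fell by 0.61 (edgeR adjusted p 1.14e-12, SE 0.05) and by 0.52 (edgeR adjusted p 3.44e-14, SE 0.04) on the log2 scale. ZNF143, another activator of these promoters, fell by 0.32 and 0.27, and SNAPC4, the DNA-binding subunit of the snRNA activating complex, rose by 0.31 and 0.30. In U2OS ZNF143 missed the threshold when scaled by library totals (-0.07, adjusted p 0.106) and without scaling (-0.18, adjusted p 0.303), and SNAPC4 in U2OS-AsiSI did so without scaling (0.17, adjusted p 0.398). Of 18 Integrator subunit genes, 6 rose and 6 fell in U2OS-AsiSI (median 0.02) and 7 rose and 6 fell in U2OS (median -0.04). Library totals alone gave 11 higher and 0 lower in U2OS-AsiSI and 12 and 1 in U2OS, and unscaled counts 2 and 3, and 4 and 0. C7orf26 rose by 0.51 and 0.49, NABP1, a single-stranded DNA binding protein tied to Integrator through INTS3, by 0.51 and 0.43, and INTS6 by 0.29 and 0.20. Both INTS6 calls were lost without scaling (0.14, adjusted p 0.452, and 0.30, adjusted p 0.0578).

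Of 21 tested genes for snRNA export, trimming and assembly, 3 rose and 3 fell in U2OS-AsiSI (median log2 -0.01) and 9 rose and 2 fell in U2OS (median 0.08). Library totals alone gave 13 and 18 higher and 0 lower in either line, and unscaled counts 0 higher and 1 lower in U2OS-AsiSI and 3 and 0 in U2OS. NCBP2, a subunit of the nuclear cap-binding complex, rose by 0.41 and 0.39, and TOE1, an exonuclease that trims snRNA 3′ ends, by 0.28 and 0.17. GEMIN2 of the SMN complex, which loads the Sm ring, stood at -0.24 (edgeR adjusted p 0.00113) and -0.05 (edgeR adjusted p 0.42). Without scaling the U2OS-AsiSI calls of NCBP2 (adjusted p 0.156) and TOE1 (adjusted p 0.499) and the U2OS call of TOE1 (adjusted p 0.151) were lost, the last also without siINTS11 replicate 2 (adjusted p 0.0785). Scaled by library totals, GEMIN2 in U2OS-AsiSI missed the threshold (-0.045, adjusted p 0.554).

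Of 30 tested snRNP protein genes, 12 rose and 6 fell (median 0.09), and 15 rose and 5 fell (median 0.11). Library totals alone gave 23 and 25 higher and 0 lower, and unscaled counts 0 higher and 1 lower in U2OS-AsiSI and 4 and 0 in U2OS. SNRNP200, the helicase of the U5 particle, rose by 0.27 and 0.19, PDCD7 of the U11/U12 particle rose by 0.31 and 0.43, and RNPC3 of the same particle fell by 0.29 and 0.21. Without scaling SNRNP200 lost its calls in U2OS-AsiSI (adjusted p 0.548) and U2OS (adjusted p 0.0869), PDCD7 in U2OS-AsiSI (adjusted p 0.41) and RNPC3 in U2OS (adjusted p 0.513). Scaled by library totals, RNPC3 missed the threshold in both lines (adjusted p 0.0651 and 0.805). These small medians depend on scaling: library totals alone move the median of all genes to 0.22 in both lines (10550 higher and 4024 lower calls in U2OS-AsiSI, against 7236 and 6657 with TMM, and 10968 and 3799 in U2OS, against 7140 and 6706), and without scaling it is -0.11 in U2OS-AsiSI and 0.11 in U2OS. The 6 members stayed positive under each of these.

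The genes most like the snRNA genes over the 12 libraries were sought by Pearson's r between log2 CPM and the mean of the 6 tested members. AC007880.2 (r = 0.99), SNHG29 (0.987), GABPB2 (0.987), AC245407.2 (0.986) and AP002478.1 (0.986) came first of 15613 genes. The libraries share the siRNA split, and 1623 genes had r above 0.9. Their log2 fold changes in U2OS-AsiSI were 1.48, 0.51, 0.28, 1.38 and 1.07, where the 6 members ran from 0.66 to 2.89 (median 0.85).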

How the data were processed

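The authors deposited tables of raw read counts per gene whose columns follow featureCounts, per the file headers, with 60583 genes and 12 count columns, and 0 columns were left without a sample. The submitters' processing notes name Trimmomatic 0.36, STAR 2.7, featureCounts, deepTools and hg38. Strand setting and handling of duplicates and multi-mapped reads are not given in the sources used here. Libraries were directional, per the labels' protocols, and the counts of nested genes given in the results show strand in use. Lengths equal gene spans, introns included. No gene of 100 bp or more passed 1 read per base, and the effect of read density on fold changes was not tested. No yeast spike-in counts were used here, so a change of all RNA together was not measured.

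The main test was two-sided and used glmQLFTest of edgeR 4.0.16 (R 4.3.3) after filterByExpr, TMM scaling and robust glmQLFit (SE from the F statistic, intervals of 95% by the normal distribution), with Benjamini-Hochberg adjustment over all genes tested and a threshold of 0.05. Each siRNA comparison used its 6 libraries, the difference between lines the interaction over 12, and the siCtrl comparison 6. The fits were tested on simulated data. Replicates differed by more than counting noise, so none was treated as a library deposited more than once, which does not show separate cultures. Reads carry no molecular identifiers, so they are not independent molecules, and the floor of 3 counts covers counting error only.

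Members, comparison lists and marker lists were chosen with earlier results of these data known. For that reason no test is given for the sum over members, although an exact permutation test was planned. Besides the members, the text names same-strand genes overlapping a member or starting within 10 kb beyond its 3′ end, up to 3 genes per list with the smallest adjusted p in U2OS-AsiSI, and the 5 genes of mean count at least 50 with the highest r (prior count 2). U47924.2, PARP16 and RNU6-2 were named after their values were seen. Alternatives were median-of-ratios factors, library totals, no scaling, TMM from genes under 0.1 reads per base, no filter on counts, a minimum mean count of 50, a replicate block, each library left out, and DESeq2 1.42.0. Motifs and 30-base windows were matched with Biopython 1.88 and Python 3.11.15, and figures drawn with matplotlib 3.10.9. Promoter sequences of the members were not used here, and some member sequences are not reported here.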

Additional observations from a re-analysis of the deposited data

How the results depend on the processing

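All 6 tested members were higher in both lines under every alternative run. The number called stayed at 6 of 6 in U2OS-AsiSI except with a mean count of at least 50, which left 4 to test, all called in both lines. In U2OS it was 5 of 6 without scaling, without siCtrl replicate 2 and without siINTS11 replicate 1, and 4 of 6 in DESeq2, from which RNU4-1 and RNU5B-1 were missing. With replicate number as a block it was 6 of 6 in both lines. Same-numbered libraries correlated at 0.14, 0.01 and 0.02 in U2OS-AsiSI and -0.03, -0.04 and 0.03 in U2OS, so they share only a number, and the block changed no member's call (RNU4-1 in U2OS: 0.32, adjusted p 0.0294). DESeq2 gave no count for the difference between lines.

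Signs changed in values that had missed the threshold. Against siCtrl these were INTS11 in U2OS-AsiSI (0.062 with library totals), RMRP in U2OS (0.19 with library totals, 0.079 without scaling, 0.029 with a mean count of at least 50, -0.087 to 0.073 leaving out a library) and GEMIN2 in U2OS (0.15 with library totals, adjusted p 0.0346, and 0.033 without scaling). For the difference between lines they were RNU1-1 (0.024 with median-of-ratios factors, 0.02 with library totals, 0.019 with TMM from sparse genes, 0.042 without a filter, 0.047 in DESeq2, -0.21 to 0.20 leaving out a library), RNU5D-1 (-0.42 to 0.72) and Z93241.1 (-0.022 without scaling). AL021155.5 passed there without a filter (0.34, adjusted p 0.0475). Between lines under siCtrl they were RNU4-2 (0.0078 with library totals, -0.13 to 0.056 leaving out a library), RNU1-1 (-0.076 to 0.25) and RNU5B-1 (-0.13 to 0.014). The cause was not tested. Few reads limit the precision of RNU1-1 and RNU5D-1, and RNU11 had 3 countable bases. The part of read density in the folds of RNU4-1, RNU4-2, RNU5A-1, RNU5B-1 and Z93241.1 was not tested.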

Other observations

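Annotated copies of the snRNA genes that carry other symbols, many of them called pseudogenes, were counted after the data were seen and without a test of the groups. In U2OS-AsiSI 5 of 5 tested U1 genes, 1 of 1 U2, 2 of 2 U4 and 4 of 4 U5 genes were called higher in edgeR, members included. In U2OS the numbers were 5 of 5, 3 of 3, 2 of 2 and 4 of 4. In both lines the U1 and U5 counts each include a gene that, as given above, passed the count filter through its siINTS11 reads. In U2OS 2 of the 3 U2 genes had at most 7 reads in any siCtrl library and at least 10 in each siINTS11 library. The direction of these genes was nearly fixed in advance, so their calls are not support. Of the genes with U6 symbols, U6 being made by RNA polymerase III, 2 of 5 were higher in U2OS-AsiSI. In U2OS 2 of 6 were higher and 1 lower. Over all genes tested, 35.4% were called higher in U2OS-AsiSI and 34.5% in U2OS, near the shares of the U6 genes. RNU6-781P had 10 to 20 reads under siCtrl and 29 to 39 under siINTS11. It rose by 1.66 (edgeR adjusted p 1.69e-06, SE 0.26) and 0.91 (edgeR adjusted p 0.00116, SE 0.24), more than RNU4-1, RNU4-2, RNU5A-1 and RNU5B-1. RNU6-80P stood at -1.04 in U2OS (edgeR adjusted p 0.0102, SE 0.36). RNU5E-4P, a U5 copy, had 50 to 63 reads in the siCtrl libraries and 73 to 86 in the siINTS11 libraries, with log2 fold changes of 0.58 (edgeR adjusted p 0.00204, SE 0.16) and 0.49 (edgeR adjusted p 0.0047, SE 0.15). RNVU1-23, a U1 variant gene, rose by 1.45 (edgeR adjusted p 2.39e-07, SE 0.20) and 0.91 (edgeR adjusted p 0.000104, SE 0.20). Reads of near-identical copies may be shared among these genes and the members.

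LINC01715, which ends 18 bp before RNU11 on the same strand, was looked at after its values were seen. It had 90 to 157 reads in the 6 siCtrl libraries and 240 to 282 in the 6 siINTS11 libraries. Its log2 fold change was 1.04 (edgeR adjusted p 1.85e-09, SE 0.11) in U2OS-AsiSI and 1.12 (edgeR adjusted p 2.57e-12, SE 0.11) in U2OS. SNORD3A, a U3 gene, had either 0 to 2 or 64 to 67 reads in each of the 12 libraries, with both kinds in 3 of the 4 groups.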
